A study of Mus musculus with 16 samples.

Results

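The subject here is fibroblast growth factor (FGF) signalling in the epithelium of the fetal mouse urogenital sinus (UGS), followed through 10 genes: the ligand *Fgf10*, the receptors *Fgfr1*, *Fgfr2* and *Fgfr3*, the Sprouty genes *Spry1*, *Spry2* and *Spry4*, the ERK phosphatase *Dusp6*, and the ETS transcription factors *Etv4* and *Etv5*. They were chosen by gene name from a gene count table of 55487 genes, in which each of the 10 has 1 row. The part of FGF signalling that lies outside these 10 genes is described through 89 further genes of the pathway.

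RNA was sequenced from UGS epithelium of male C57BL/6J fetuses collected at E16.75, in 4 pools from dams given TCDD and 4 pools from dams given vehicle. TCDD (dioxin) is a persistent environmental chemical that activates the aryl hydrocarbon receptor (AHR), and the study used it to ask how prenatal exposure alters gene expression in the developing prostate. The TCDD pools came from dams given a single oral dose of 5 µg/kg at E13.5 according to the sample labels, whereas the general description of the data states 1 µg/kg and the paper's results text states a later day of exposure. The vehicle pools came from dams given corn oil (5 ml/kg). Both groups are of this strain, with no other allele named, and each pool joined 5 or 6 epithelia that had been freed from the surrounding mesenchyme by enzyme digestion and dissection. A replicate is therefore a pool and not an animal. The sources used here do not say how litters were spread over pools, so p-values measure the spread between these pools.

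Signals of the FGF family drive outgrowth of the prostatic buds from the UGS epithelium. FGF10 is made by the mesenchyme and acts on the IIIb splice form of FGFR2 in the epithelium, where the receptor activates the RAS and ERK kinase cascade. ERK activity raises transcription of *Etv4*, *Etv5*, *Dusp6* and the Sprouty genes in many epithelia, so these genes are widely used as readouts of FGF signalling, while DUSP6 and the Sprouty proteins also restrain the pathway as feedback inhibitors. Counts per gene do not separate the IIIb splice form from the IIIc splice form of a receptor.

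The TCDD pools held 22254896 to 26740656 gene counts and the vehicle pools 25917911 to 28146766, summed over the lanes. Differences between lanes of a pool were of the size that sampling gives (0.990 to 1.04 chi-square units per gene), so lanes were averaged and each pool counts once. The authors left out a TCDD pool as an outlier, and the library name in a deposited note to their comparison tables is that of TCDD replicate 1. It is left out of the main tests, and here each test is given first over the other 7 pools and then over all 8. Levels are CPM, counts scaled to library size, with library sizes corrected over all 8 pools by the TMM method of edgeR. A gene is said to rise or fall where its p from the quasi-likelihood F-test of edgeR, adjusted by Benjamini-Hochberg over every gene tested, was no higher than 0.05. *Cyp1a1*, a classic AHR target, had 130, 161, 205 and 241 CPM in the TCDD pools and at most 0.07 CPM in any vehicle pool. Exposure thus shows in every TCDD pool, replicate 1 included. The epithelial cadherin *Cdh1* averaged 1431 ± 124 CPM with TCDD and 1414 ± 80.0 CPM with vehicle (SD, n = 3 and 4 pools). The 12 epithelium markers together held 9773 to 10979 CPM in TCDD replicates 2 to 4 and 8869 to 9269 CPM in the vehicle pools, whereas 16 mesenchyme markers held 80.9 to 85.4 CPM and 141 to 202 CPM. TCDD replicate 1 was at 10809 and 159 CPM. Of the 12 epithelium markers 4 rose, 2 fell and 6 did not pass, beside 23.0% of all genes passing. With all 8 pools 4 rose and 1 fell, beside 13.4%. The sum thus does not stand for each epithelium marker. In bulk RNA, fewer cells of a type and less RNA per cell cannot be told apart.

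Of the 10 members 9 had enough counts to be tested, and 2 of them fell with TCDD, the receptor genes *Fgfr1* and *Fgfr2*. None of the 9 rose and 7 did not pass the test. Over all 14233 genes tested 23.0% passed, with 11.9% higher and 11.2% lower, so 2 of 9 is near the background of this comparison. The median log2 fold change of the 9 members was −0.21, against −0.00 over all genes. Over all 8 pools *Fgfr1* alone of the members passed, in a comparison that called 13.4% of 14051 genes. *Fgfr1* and *Fgfr2* were also the only members whose TCDD and vehicle pools did not overlap. That holds for 31.4% of genes over 7 pools and 18.4% over 8.

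**Figure D1:**
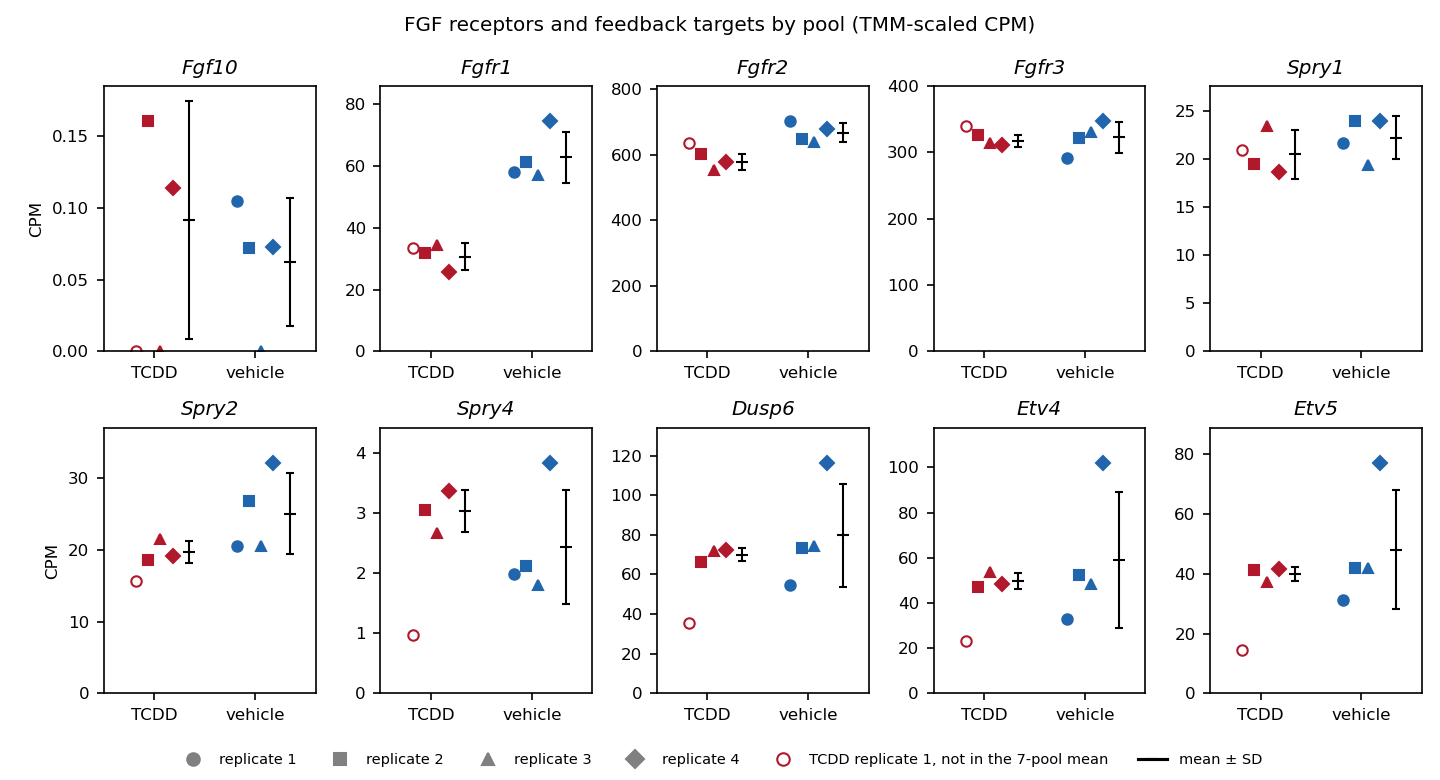
Level of each of the 10 genes in every pool, in TMM-scaled CPM on axes that start at 0, with TCDD pools on the left (red, replicate 1 open) and vehicle pools on the right (blue). Black marks are the mean ± SD of TCDD replicates 2 to 4 and of the 4 vehicle pools. *Fgfr1* lies between 25.8 and 34.5 CPM in the TCDD pools and between 56.9 and 74.6 CPM in the vehicle pools, whereas *Dusp6*, *Etv4* and *Etv5* have their lowest value in TCDD replicate 1 and their highest in vehicle replicate 4.

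*Fgf10* (ENSMUSG00000021732, GRCm38 chromosome 13, 118669791 to 118792115, plus strand) was close to absent from these libraries. It had 0, 4, 0 and 3 counts over both lanes in the TCDD pools and 3, 2, 0 and 2 counts in the vehicle pools, or 14 counts in all. These values overlap and are too few for the test, so no fold change is given. Among the other ligands, *Fgf7*, a mesenchymal ligand of the same receptor form, had at most 5 counts in a pool. The ligand gene with the most reads was *Fgf1*, which averaged 44.8 ± 2.72 CPM with TCDD and 48.0 ± 4.81 CPM with vehicle (SD, n = 3 and 4). Its log2 fold change was −0.10 ± 0.09 (SE, adjusted p = 0.485).

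*Fgfr1* (ENSMUSG00000031565, GRCm38 chromosome 8, 25513654 to 25575718, plus strand), a receptor best known for signalling in mesenchyme but also made by epithelia, had the largest difference of the 9 members tested. It was at 33.5, 31.7, 34.5 and 25.8 CPM in TCDD replicates 1 to 4 and at 58.0, 61.3, 56.9 and 74.6 CPM in vehicle replicates 1 to 4. Every TCDD pool lay below every vehicle pool, and replicate 1 was as low as the other TCDD pools. The log2 fold change was −1.04 ± 0.12 (SE, 95% interval −1.26 to −0.81, adjusted p = 3.24e-05), and −1.0 over all 8 pools (adjusted p = 2.28e-04). *Fgfr1* also passed TREAT, which asks for a change beyond 1.5-fold (adjusted p = 0.00718), as did 4.03% of all genes. Without TCDD replicate 4 the TREAT adjusted p was 0.0505 at a log2 fold change of −0.93, while the quasi-likelihood call held in each of 20 alternative fits.

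The mesenchyme markers moved in the same direction as *Fgfr1* in the 7 pools. Of 16 such markers 10 could be tested, and 7 fell and 0 rose, beside 23.0% of all genes passing. Of the 10 markers 3 fell over all 8 pools, beside 13.4%. Decorin (*Dcn*), the most abundant, averaged 53.8 ± 2.28 CPM with TCDD and 89.8 ± 5.28 CPM with vehicle (SD, n = 3 and 4), which is −0.74 on the log2 scale (adjusted p = 9.54e-06 over 7 pools, 0.0801 over 8). *Col3a1*, which encodes a fibrillar collagen and shares exon sequence with another annotated gene on its strand, averaged 7.40 ± 0.888 CPM with TCDD and 36.2 ± 8.71 CPM with vehicle, and lumican (*Lum*) 10.1 ± 1.35 CPM and 12.0 ± 1.06 CPM. *Col3a1* fell (log2 fold change −2.29, adjusted p = 1.96e-05) and *Lum* did not pass (−0.26, adjusted p = 0.173). None of the 16 was at 0 in every pool. Sums of other cell types differed too. The groups did not overlap over 7 pools for smooth muscle, with 1.13 to 1.86 CPM of 7 smooth muscle markers in TCDD replicates 2 to 4 and 2.91 to 6.01 CPM in the vehicle pools, or for nerve and glia, with 7.62 to 7.88 CPM and 10.2 to 11.8 CPM of 7 markers. They overlapped for 7 immune markers, with 19.3 to 30.0 CPM and 10.7 to 21.0 CPM. Of the immune markers 6 could be tested singly, and 3 rose and 0 fell, beside 23.0% of all genes passing. With all 8 pools 1 of 5 rose and 0 fell, beside 13.4%. TCDD replicate 1 was at 6.02 CPM for smooth muscle, 11.2 CPM for nerve and glia and 14.8 CPM for immune markers. In TCDD replicate 1 the mesenchyme markers summed to 159 CPM, inside the vehicle range, with 91.6 CPM of that from *Dcn*, and *Fgfr1* was at 33.5 CPM there, below every vehicle pool. Of the 16 markers in that pool 11 lay within the range of the vehicle pools, 4 below it (*Vim*, *Col3a1*, *Zeb1* and *Zeb2*) and 1 above it (*Lum*). *Vim*, *Zeb1* and *Zeb2* are named after their values were seen. The part of other cell types in the *Fgfr1* difference was not tested.

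**Figure D2:**
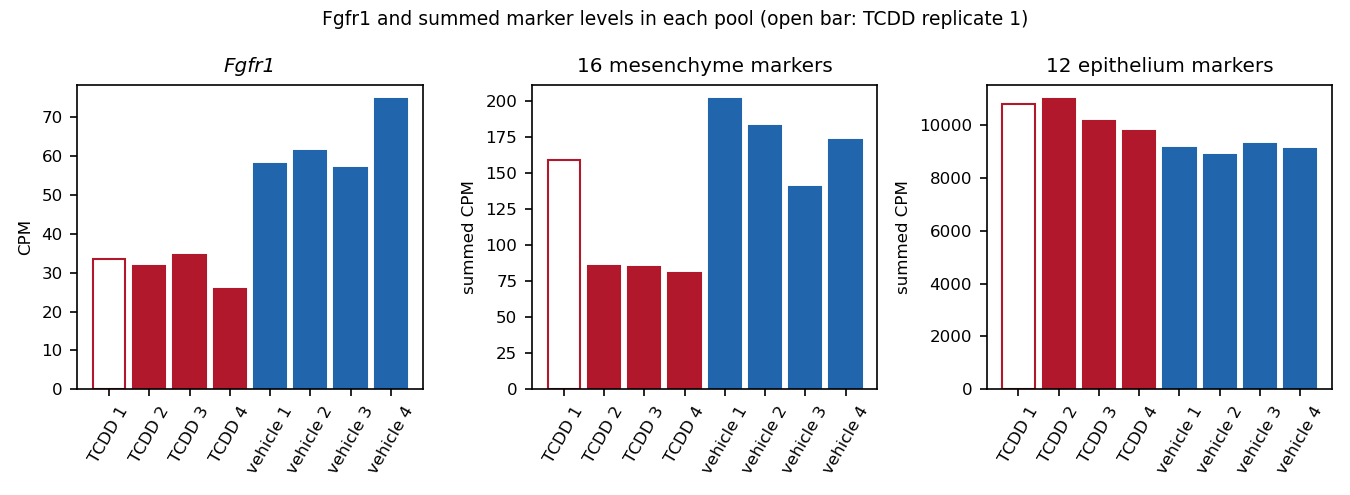
*Fgfr1* (CPM), the summed level of 16 mesenchyme markers and the summed level of 12 epithelium markers (summed CPM) in each pool, TCDD pools in red with replicate 1 open and vehicle pools in blue. In TCDD replicate 1 the mesenchyme markers stand at 159 CPM, within the 141 to 202 CPM of the vehicle pools, while *Fgfr1* stands at 33.5 CPM, near the other TCDD pools.

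*Fgfr2* (ENSMUSG00000030849, GRCm38 chromosome 7, 130162451 to 133123350, minus strand), the receptor for FGF10 in prostatic epithelium, was the most abundant member and differed far less. It was at 636, 602, 553 and 578 CPM in TCDD replicates 1 to 4 and at 705, 647, 641 and 678 CPM in vehicle replicates 1 to 4. The groups did not overlap, though TCDD replicate 1 came within a few CPM of the lowest vehicle pool. TCDD over vehicle gave a log2 fold change of −0.21 ± 0.07 (SE, 95% interval −0.34 to −0.08, adjusted p = 0.0339). Over all 8 pools it was −0.17 and did not pass (adjusted p = 0.0983). The call was also lost without vehicle replicate 1 (adjusted p = 0.0815), 2 (0.0519) or 4 (0.0553), without TCDD replicate 3 (0.0730) or 4 (0.0835), and without the filter on low counts (0.0671). The *Fgfr2* gene overlaps exon sequence of *Ctbp2* on the same strand, and its count is uncertain to that extent.

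*Fgfr3* (ENSMUSG00000054252, GRCm38 chromosome 5, 33721674 to 33737068, plus strand), which is found mainly in epithelia, was at 340, 327, 314 and 311 CPM in TCDD replicates 1 to 4 and at 291, 322, 330 and 348 CPM in vehicle replicates 1 to 4. The vehicle pools spanned the range of the TCDD pools. On the log2 scale the fold change was −0.03 ± 0.07 (SE, 95% interval −0.17 to 0.12, adjusted p = 0.835) and turned to 0.00 with all 8 pools or without vehicle replicate 4. *Fgfr4*, the remaining receptor with a kinase domain, was near the limit of detection at 0.943 ± 0.654 CPM with TCDD and 1.40 ± 0.629 CPM with vehicle (SD, n = 3 and 4). Its log2 fold change was −0.60 ± 0.49 (SE, adjusted p = 0.424) and ran from −1.30 without TCDD replicate 3 to −0.28 without TCDD replicate 4.

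Per kilobase of exon the receptors stood in the same order in both groups. *Fgfr2* had 55.9 ± 2.40 CPM per kb with TCDD and 64.6 ± 2.86 with vehicle, *Fgfr3* had 44.3 ± 1.18 and 45.1 ± 3.33, and *Fgfr1* had 3.11 ± 0.449 and 6.35 ± 0.827 (SD, n = 3 and 4). *Fgfr2* lay above *Fgfr3*, and *Fgfr3* above *Fgfr1*, in every pool of both groups. Of the summed level per kb of the 4 kinase receptors, *Fgfr1* made up 3.01%, 2.99%, 3.45% and 2.56% in TCDD replicates 1 to 4 and 5.09%, 5.44%, 5.04% and 6.18% in vehicle replicates 1 to 4. The difference in share had p = 0.0286 in a two-sided exact permutation test over 7 pools, the smallest p that the 35 arrangements allow, and p = 0.0286 over 8 pools, the smallest for 70 arrangements. The share of *Fgfr1* rests on the same counts as its fold change and is no separate evidence.

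*Etv4*, *Etv5* and *Dusp6*, the members best known as ERK-induced genes, did not pass the test, and their spread between the vehicle pools was wide. *Etv4* (ENSMUSG00000017724, GRCm38 chromosome 11, 101769742 to 101785371, minus strand), an ETS factor that FGF signalling induces, was at 23.3, 47.0, 53.9 and 48.4 CPM in TCDD replicates 1 to 4 and at 33.1, 52.5, 48.4 and 102 CPM in vehicle replicates 1 to 4. TCDD replicates 2 to 4 fell among the vehicle pools, vehicle replicate 4 stood well above all others and TCDD replicate 1 below them. Its log2 fold change was −0.25 ± 0.39 (SE, 95% interval −1.01 to 0.52, adjusted p = 0.718), and it turned to 0.15 (adjusted p = 0.530) without vehicle replicate 4.

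*Etv5* (ENSMUSG00000013089, GRCm38 chromosome 16, 22381309 to 22439719, minus strand), the close relative of *Etv4*, followed the same pools. It was at 14.4, 41.1, 37.3 and 41.6 CPM in TCDD replicates 1 to 4 and at 31.2, 42.0, 41.9 and 77.1 CPM in vehicle replicates 1 to 4. The groups overlapped through vehicle replicate 1. The log2 fold change was −0.26 ± 0.31 (SE, 95% interval −0.87 to 0.35, adjusted p = 0.615) and, with vehicle replicate 4 left out, 0.05 (adjusted p = 0.783).

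*Dusp6* (ENSMUSG00000019960, GRCm38 chromosome 10, 99263231 to 99267489, plus strand), the phosphatase that removes the activating phosphates from ERK, was at 35.4, 66.3, 71.7 and 72.1 CPM in TCDD replicates 1 to 4 and at 54.9, 73.2, 74.2 and 116 CPM in vehicle replicates 1 to 4. TCDD replicates 2 to 4 lay between the lowest vehicle pool and the next. TCDD over vehicle gave a log2 fold change of −0.19 ± 0.24 (SE, 95% interval −0.65 to 0.28, adjusted p = 0.639) and, with vehicle replicate 4 left out, 0.05 (adjusted p = 0.805). With all 8 pools the log2 fold changes were −0.45 for *Etv4*, −0.51 for *Etv5* and −0.37 for *Dusp6*, and none passed (adjusted p = 0.510, 0.448 and 0.455).

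The Sprouty genes encode inhibitors of receptor tyrosine kinase signalling. *Spry1* (ENSMUSG00000037211, GRCm38 chromosome 3, 37639947 to 37644598, plus strand) had levels of 20.9, 19.5, 23.4 and 18.7 CPM in TCDD replicates 1 to 4 and of 21.7, 23.97, 19.4 and 24.04 CPM in vehicle replicates 1 to 4, with a log2 difference of −0.12 ± 0.11 (SE, 95% interval −0.34 to 0.10, adjusted p = 0.480). Its groups overlapped and no pool stood apart. *Spry2* (ENSMUSG00000022114, GRCm38 chromosome 14, 105891947 to 105896819, minus strand) was at 15.6, 18.6, 21.5 and 19.2 CPM in TCDD replicates 1 to 4 and at 20.5, 26.8, 20.5 and 32.1 CPM in vehicle replicates 1 to 4. Only TCDD replicate 3 reached into the vehicle range. The log2 fold change of *Spry2* was −0.34 ± 0.15 (SE, 95% interval −0.64 to −0.04, adjusted p = 0.136), −0.42 with all 8 pools (adjusted p = 0.102), and −0.21 when vehicle replicate 4 was left out. It passed in 1 of 20 alternatives, the fit without a filter on low counts (adjusted p = 0.0169). *Spry4* was the scarcest member tested, with 22 to 106 counts in a pool. It was at 0.974, 3.06, 2.67 and 3.37 CPM in TCDD replicates 1 to 4 and at 1.99, 2.12, 1.80 and 3.84 CPM in vehicle replicates 1 to 4. TCDD replicates 2 to 4 exceeded every vehicle pool except replicate 4, and TCDD replicate 1 was below all pools. Its log2 fold change was 0.32 ± 0.27 (SE, 95% interval −0.21 to 0.84, adjusted p = 0.443), 0.06 over 8 pools and 0.61 without vehicle replicate 4.

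Per kilobase of exon the feedback and target genes stood below *Fgfr2* and *Fgfr3* in both groups. *Dusp6* had 22.4 ± 1.03 CPM per kb with TCDD and 25.4 ± 8.32 with vehicle, and *Etv4* had 16.04 ± 1.17 and 19.0 ± 9.64 (SD, n = 3 and 4). *Etv5* had 9.75 ± 0.568 CPM per kb with TCDD and 11.7 ± 4.88 with vehicle, *Spry2* had 9.46 ± 0.733 and 12.0 ± 2.70, and *Spry1* had 7.07 ± 0.875 and 7.66 ± 0.755. *Spry4* was last of those tested, at 0.638 ± 0.0736 CPM per kb with TCDD and 0.513 ± 0.199 with vehicle, below *Fgfr1*. In the TCDD pools only *Etv5* and *Spry2* overlapped among neighbours in this order. In the vehicle pools every pair of neighbours from *Dusp6* down to *Fgfr1* overlapped between pools. Within a pool the higher gene of each such pair was above the lower in 4 of 4 vehicle pools, except for *Spry2* over *Etv5* (2 of 4).

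**Figure D3:**
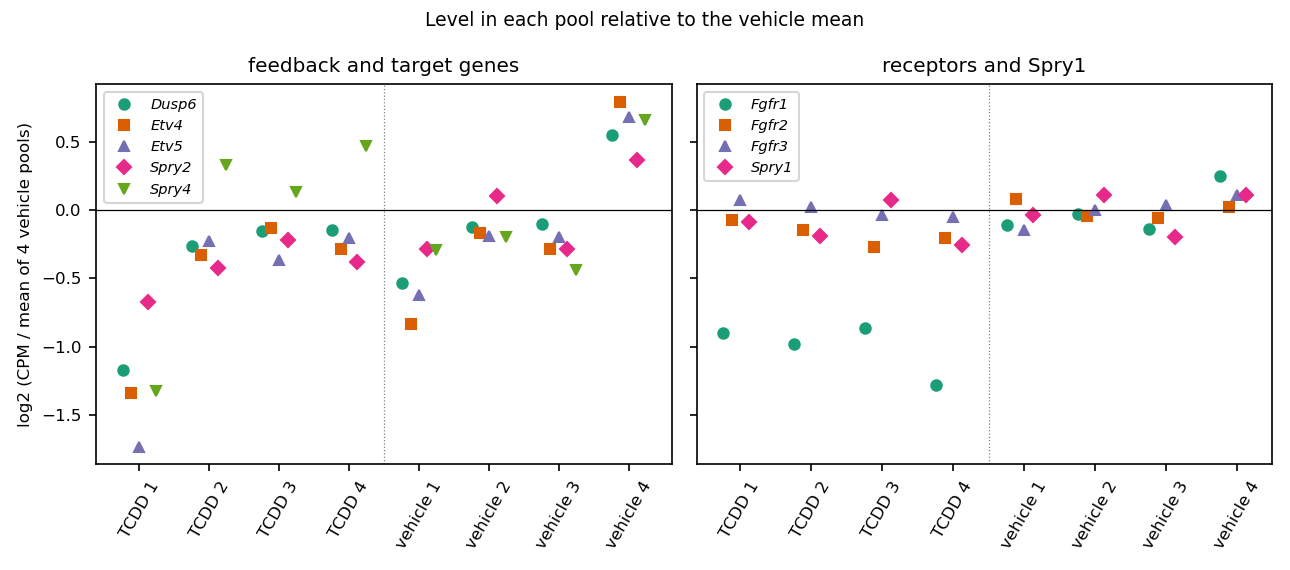
Level of 9 members in each pool as log2 of the CPM over the mean of the 4 vehicle pools, with TCDD pools left of the dotted line and vehicle pools right of it. On the left, *Dusp6*, *Etv4*, *Etv5*, *Spry2* and *Spry4* all have their lowest pool in TCDD replicate 1 and their highest in vehicle replicate 4. On the right, *Fgfr1* is below the vehicle mean in all 4 TCDD pools, and *Fgfr2*, *Fgfr3* and *Spry1* stay near it.

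The lowest pool and the highest pool were both the same for 5 members. *Spry2*, *Spry4*, *Dusp6*, *Etv4* and *Etv5* all had their lowest level in TCDD replicate 1 and their highest in vehicle replicate 4, with the highest pool at 2.06, 3.94, 3.29, 4.38 and 5.34 times the lowest. For *Fgfr1*, *Fgfr2*, *Fgfr3* and *Spry1* the corresponding ratio was 2.89, 1.28, 1.20 and 1.29. Vehicle replicate 4 was also the highest pool for *Fgfr1*, *Fgfr3* and *Spry1*. The lowest pool was TCDD replicate 4 for *Fgfr1* and *Spry1*, TCDD replicate 3 for *Fgfr2* and vehicle replicate 1 for *Fgfr3*. The SD of log2 CPM over the 4 vehicle pools was 0.67 for *Etv4*, 0.54 for *Etv5* and 0.45 for *Dusp6*, against a median of 0.0995 over 11083 genes with a mean of at least 5 CPM. Set against those genes, these SDs had percentiles of 99.6, 99.2 and 98.7, with 98.3 for *Spry4* and 96.3 for *Spry2*. *Spry4*, at 3.03 CPM with TCDD and 2.44 CPM with vehicle, is not one of those genes and is ranked against better-counted ones. The percentile was 82.7 for *Fgfr1*, 72.6 for *Spry1*, 55.4 for *Fgfr3* and 22.9 for *Fgfr2*. Over all 4 TCDD pools the SD was 0.55 for *Etv4*, 0.72 for *Etv5* and 0.49 for *Dusp6*, and without TCDD replicate 1 it was 0.10, 0.08 and 0.07.

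Some cell markers also differed in these pools. Vehicle replicate 4 held 9.43 CPM of 6 skeletal muscle markers, against 1.84 to 2.73 CPM in the other vehicle pools, and TCDD replicate 1 held 5.45 CPM of 7 endothelium markers, against 0.530 to 1.02 CPM in the other TCDD pools and 0.804 to 1.53 CPM in the vehicle pools. The mesenchyme sum of vehicle replicate 4 (173 CPM) lay within that of the other vehicle pools. The part of these cells in the spread of the 5 genes was not tested.

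The genes whose profile over the 8 pools was most like that of each member were found by the root mean square difference of log2 CPM, each gene centred on its own mean, among 11082 genes with a mean of at least 5 CPM. For *Etv4* the closest gene was *Dusp6* (difference 0.15), ahead of *Ephx1* (0.16) and *Npas2* (0.17). *Ephx1* and *Npas2* were also among the 3 closest to *Dusp6*, which were *Lhfp* (0.08), *Npas2* (0.12) and *Ephx1* (0.13), with *Etv4* in rank 5. For *Etv5* they were *Slc39a8* (0.16), *Sned1* (0.17) and *Etv4* (0.18). *Etv4* was thus among the 5 closest genes to both *Dusp6* and *Etv5*, over pools that include the 2 that stand apart for all 3 genes. *Fgfr1* was closest to *Pknox2* (0.07), *Nr2f1* (0.10) and *Prss23* (0.12), and the nearest member, *Spry2*, came in rank 573.

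Promoters of *Dusp6*, *Spry2* and *Etv5* are shown, members that share their lowest pool (TCDD replicate 1) and their highest (vehicle replicate 4). By the profile over 8 pools *Spry2* was not close to the other 2, and its nearest member was *Spry1* in rank 300. ETS factors bind a GGAA core, and ETV4 and ETV5 are ETS factors themselves. The part of ETS factors in these levels was not tested. RefSeq (GRCm38.p6) gave promoters for 7 of the 10 members, all but *Fgfr1*, *Etv4* and *Spry4*. In each of the following the 250 bases before the start are written 5′ to 3′ on the gene's strand, with GGAA, or TTCC where it lies on the other strand, in capitals. *Dusp6* is at chr10:99262981-99263230 (plus strand), *Spry2* at chr14:105896820-105897069 (minus strand) and the second listed start of *Etv5* at chr16:22438369-22438618 (minus strand).
Dusp6: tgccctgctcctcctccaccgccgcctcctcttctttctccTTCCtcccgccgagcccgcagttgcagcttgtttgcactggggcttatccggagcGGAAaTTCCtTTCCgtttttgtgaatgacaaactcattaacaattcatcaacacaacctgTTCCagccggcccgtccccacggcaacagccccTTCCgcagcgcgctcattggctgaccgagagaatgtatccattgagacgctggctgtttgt
Spry2: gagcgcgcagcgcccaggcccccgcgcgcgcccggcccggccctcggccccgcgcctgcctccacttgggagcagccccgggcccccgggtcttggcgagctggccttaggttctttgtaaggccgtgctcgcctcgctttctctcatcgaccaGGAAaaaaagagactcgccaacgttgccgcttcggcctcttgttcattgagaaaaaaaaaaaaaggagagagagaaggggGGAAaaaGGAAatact
Etv5: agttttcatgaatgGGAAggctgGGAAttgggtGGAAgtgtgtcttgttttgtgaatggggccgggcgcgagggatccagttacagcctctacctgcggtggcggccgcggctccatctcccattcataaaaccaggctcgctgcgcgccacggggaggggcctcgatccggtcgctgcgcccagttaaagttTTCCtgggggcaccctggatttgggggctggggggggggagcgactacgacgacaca
*Dusp6* holds 6 matches, of which 3 lie side by side 144 to 154 bases before the start, *Spry2* holds 3 and this start of *Etv5* holds 4, while the first listed start of *Etv5* holds 0. Among the other members *Fgfr3* holds 1 match before its first listed start and 5 before its second. *Fgf10* and *Fgfr2* hold 2 each and *Spry1* holds 1. Of all 32851 promoters of this length 93.4% hold at least 1 match and the median is 3, so a match alone sets no promoter apart. GCGTG, the core of the element that AHR binds, was searched on both strands in the same way and does not overlap GGAA. It occurs 4 times before the first listed start of *Fgfr3* and 2 times before that of *Spry1*, and in 28.2% of all promoters. Neither gene passed the test. *Fgfr2* and *Fgf10* hold 0 matches to GCGTG in this window.

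Beyond the 10 genes, 70 of the 89 further pathway genes had enough counts. Of these 9 rose and 19 fell with TCDD, which leaves 42 that did not pass, against 23.0% of all genes passing. Over 8 pools 8 of 69 rose and 9 fell, where 13.4% of all genes passed. Without TCDD replicate 4 the number that passed was 18 in all. Calls over all genes also dropped when 1 pool was left out, to between 2250 and 3214 from 3276. The median log2 fold change of the 70 pathway genes was −0.09. Only 3 of the 70 passed TREAT over 7 pools, *Sulf1*, *Il17rd* and *Ier3*. With all 8 pools *Sulf1* and *Ier3* passed it again, *Il17rd* did not (TREAT adjusted p = 0.516) and *Fos* did (0.0435). The pathway genes named as changed passed over 7 pools and, unless stated, over 8.

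Among ligands 6 of 21 could be tested, and *Fgf11* and *Fgf13* fell (33.3% of those tested, beside 23.0% of all genes). Both encode FGF-related proteins that are not secreted and act inside cells. *Fgf11* averaged 12.2 ± 3.31 CPM with TCDD and 22.2 ± 5.32 CPM with vehicle (SD, n = 3 and 4), a log2 fold change of −0.87 (adjusted p = 0.0155). The call was lost with all 8 pools (adjusted p = 0.0993) and when TCDD replicate 4 was left out (0.0747). *Fgf13* was at −0.69 (adjusted p = 0.0252) and did not pass over 8 pools (0.190), without vehicle replicate 2 (0.0655) or 3 (0.0748), or without TCDD replicate 2 (0.0945) or 3 (0.0674).

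Of 6 further receptors, co-receptors and carriers 4 could be tested, and *Fgfrl1* and *Fgfbp1* fell (50% of those tested, beside 23.0% of all genes). *Fgfbp1* encodes a secreted carrier that releases FGFs from the matrix, and averaged 37.7 ± 3.11 CPM with TCDD and 57.9 ± 3.77 CPM with vehicle (log2 fold change −0.62, adjusted p = 1.37e-04). *Fgfrl1*, an FGF receptor without a kinase domain, averaged 11.2 ± 0.940 CPM with TCDD and 16.02 ± 1.63 CPM with vehicle (log2 fold change −0.52, adjusted p = 0.00557) and did not pass over 8 pools (adjusted p = 0.0716).

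Heparan sulfate is the sugar chain that FGFs need to bind their receptors, and all 13 listed genes that make, edit or carry it could be tested. Of these 3 rose and 7 fell, a share of 76.9% beside 23.0% of all genes. With all 8 pools 2 rose and 4 fell, where 13.4% of all genes passed. *Sulf1*, an extracellular enzyme that removes 6-O-sulfate groups and so weakens FGF binding, fell the most of all 70 genes. It was at 107, 96.0, 82.1 and 86.5 CPM in TCDD replicates 1 to 4 and at 275, 231, 253 and 227 CPM in vehicle replicates 1 to 4. The groups were far apart, in TCDD replicate 1 as in the other TCDD pools. On the log2 scale the fold change was −1.49 ± 0.09 (SE, adjusted p = 1.01e-07, TREAT adjusted p = 2.74e-06). Its relative *Sulf2*, an enzyme of the same kind, rose (0.31, adjusted p = 0.0492) but did not pass over 8 pools (0.0978). *Sulf2* is named after its value was seen. The sulfotransferases that add 6-O-sulfate groups fell, *Hs6st1* by 0.25 (adjusted p = 0.0162) and *Hs6st2* by 0.94 (adjusted p = 0.0171) on the log2 scale. Neither passed over 8 pools (adjusted p = 0.294 and 0.0681), and *Hs6st1* was lost without TCDD replicate 4 (0.0710) and *Hs6st2* without TCDD replicate 2 (0.0744). The sulfotransferase *Ndst1* (−0.40, adjusted p = 0.00418) and the glypican core protein *Gpc3* (−0.78, adjusted p = 2.23e-05) fell with either set of pools. In TCDD replicate 1, where the mesenchyme markers were within the vehicle range, *Gpc3* was at 127 CPM, near the lowest vehicle pool at 128 CPM. The part of mesenchyme in the *Gpc3* difference was not tested.

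**Figure D4:**
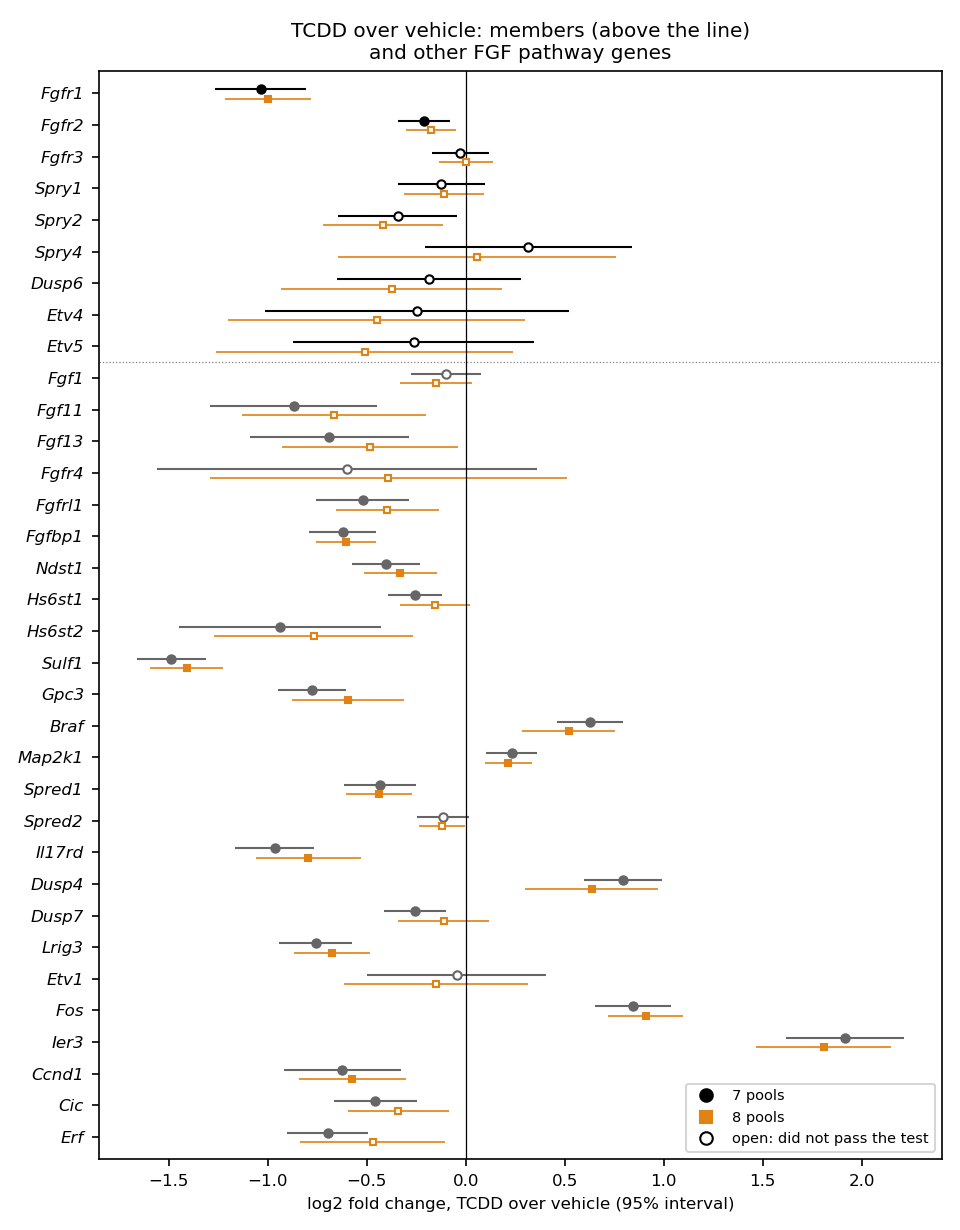
Log2 fold change of TCDD over vehicle, with its 95% interval, for 9 members (above the dotted line) and other FGF pathway genes in the order of their lists, over 7 pools (circles) and 8 pools (orange squares). Filled symbols passed the quasi-likelihood test. *Fgfr1*, *Sulf1* and *Il17rd* lie near or beyond −1 and *Ier3* near 1.9, while *Dusp6*, *Etv4* and *Etv5* have wide intervals that include 0.

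Of 18 genes of the relay from receptor to ERK 3 rose and none fell, a share of 3 in 18 beside 23.0% of all genes. Over 8 pools the counts were also 3 and 0, where 13.4% of all genes passed. The kinase gene *Braf* averaged 113 ± 13.6 CPM with TCDD and 73.3 ± 3.76 CPM with vehicle (log2 fold change 0.63, adjusted p = 1.22e-04). *Map2k1*, which encodes the ERK kinase MEK1, was at 0.23 (adjusted p = 0.0211) and did not pass without vehicle replicate 1 (0.0512), 2 (0.0661) or 3 (0.0722) or without TCDD replicate 4 (0.0633).

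The other feedback inhibitors did not move as a block. Of 15 such genes 14 could be tested, and 1 rose and 5 fell, a share of 42.9% beside 23.0% of all genes. With all 8 pools 1 rose and 3 fell, where 13.4% of all genes passed. *Il17rd*, which encodes SEF, an inhibitor of FGF signalling at the membrane, was at 15.5, 10.8, 10.4 and 9.74 CPM in TCDD replicates 1 to 4 and at 20.1, 20.2, 19.3 and 20.7 CPM in vehicle replicates 1 to 4. All TCDD pools were lower, replicate 1 the least so. Its log2 fold change was −0.96 ± 0.10 (SE, adjusted p = 1.29e-05, TREAT adjusted p = 0.00839). With all 8 pools the log2 fold change was −0.80 (adjusted p = 0.00287), and *Il17rd* did not pass TREAT (adjusted p = 0.516). *Lrig3* was at −0.76 (adjusted p = 5.27e-05) and *Spred1*, a Sprouty-related inhibitor, at −0.44 (adjusted p = 0.00352), whereas its relative *Spred2* did not pass (−0.11, adjusted p = 0.252). The ERK phosphatase gene *Dusp4* rose, with 38.3 ± 5.47 CPM with TCDD and 22.1 ± 1.04 CPM with vehicle (log2 fold change 0.79, adjusted p = 6.49e-05), while *Dusp7* was at −0.25 (adjusted p = 0.0328). The *Dusp7* call was lost over 8 pools (0.596), without vehicle replicate 2 (0.0599) or 3 (0.0973) and without TCDD replicate 2 (0.0690) or 3 (0.0940).

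Of 16 other ETS factors and ERK targets 15 could be tested. Of these 2 rose and 3 fell, a share of 33.3% beside 23.0% of all genes. With all 8 pools 2 rose and 1 fell, where 13.4% of all genes passed. *Ier3*, an immediate early gene, averaged 19.5 ± 1.01 CPM with TCDD and 5.15 ± 1.09 CPM with vehicle (SD, n = 3 and 4), 1.91 ± 0.15 higher on the log2 scale (SE, adjusted p = 1.08e-06, TREAT adjusted p = 1.90e-05). The immediate early gene *Fos* rose as well (0.84, adjusted p = 2.78e-05). The cyclin gene *Ccnd1* fell (−0.62, adjusted p = 0.0136), though not without TCDD replicate 2 (0.0647) or 4 (0.0749). *Erf* (−0.70, adjusted p = 3.02e-04) and *Cic* (−0.46, adjusted p = 0.00752), repressors that ERK inactivates, fell over 7 pools and did not pass over 8 (0.138 and 0.114). *Etv1*, the third member of the family of *Etv4* and *Etv5*, averaged 5.69 ± 0.305 CPM with TCDD and 5.88 ± 1.87 CPM with vehicle (log2 fold change −0.05, adjusted p = 0.914), and its sign turned without vehicle replicate 3 (0.04) or 4 (0.09).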

How the data were processed

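Reads from UGS epithelium of 8 pools, each on 2 lanes, were aligned by the authors to GRCm38.p6 with HISAT2 2.1.0, per the paper's methods, and the authors made the deposited counts with HTSeq 0.12.4 over exons, counting pairs on the strand of the gene. Lines that name no gene held 17.4% to 20.1% of read pairs and were left out. The deposited comparison tables hold the authors' log2 fold changes, p-values, −log10 values and scores and were not used.

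Lanes were averaged and TCDD replicate 1 left out, as the authors did by their deposited note. Genes were filtered with filterByExpr (minimum count 10, minimum total count 15), scaled by TMM and tested in R 4.3.3 with edgeR 4.0.16, by the robust quasi-likelihood F-test and by TREAT, adjusted by Benjamini-Hochberg over all genes tested. SEs come from log2 fold changes and their F statistics, and 95% intervals are 1.96 SEs either side, unadjusted. Counting precision is given by 22254896 to 28146766 counts per pool. The fits were first tested on simulated data. Likeness used log2 of CPM plus 0.5. Exon lengths and coordinates are from GENCODE (GRCm38), 1-based. DESeq2 1.42.0, other scalings, filters, lanes, a replicate block and leaving out each pool were alternatives.

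The members and lists were chosen with earlier results of these data known. Named genes are the 10 members, up to 5 tested genes of each pathway list with the smallest adjusted p, some receptors, ETS and feedback genes regardless of values, *Cyp1a1*, the 3 most abundant markers of a list, and the 3 genes most like each member. The result of 1 named gene is not reported here.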

Additional observations from a re-analysis of the deposited data

Results flagged for a closer look

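Of 18 groups of 4 pools examined, 9 members in each of TCDD and vehicle, 3 had a pool whose gap to the nearest other exceeded Dixon's 95% critical value for 4 values, as a share of the group's range. Chance alone flags about 1 in 20 such groups. *Dusp6* in TCDD replicate 1 was at 35.4 CPM, against 66.3 CPM in the next TCDD pool (gap 0.842 of the range). *Etv5* in TCDD replicate 1 was at 14.4 CPM, against 37.3 CPM in the next TCDD pool (0.843). *Spry4* in vehicle replicate 4 was at 3.84 CPM, against 2.12 CPM in the next vehicle pool (0.841). The groups of *Dusp6* and *Etv5* hold the same TCDD pools.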

How the results depend on the processing

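With all 8 pools the genes called numbered 1 of the members, 17 of the pathway lists, 3 of the mesenchyme markers and 1884 in all, against 2, 28, 7 and 3276 over 7 pools. Leaving out 1 pool at a time gave 1 to 2 members, 0 to 1 members by TREAT, 18 to 26 pathway genes and 2250 to 3214 genes in all. Replicate numbers did not pair the pools over 7 pools (correlations of −0.25, −0.07 and −0.09 for replicates 2 to 4). Over 8 pools the correlations were 0.42, −0.14, −0.18 and 0.14 for replicates 1 to 4. There only TCDD replicate 1 correlated best with the vehicle pool of its own number. A replicate block gave 1 member over 7 pools, and over 8 pools 1 member, 0 by TREAT, 15 pathway genes and 2088 genes in all. With the block *Fgfr2* had an adjusted p of 0.147 over 7 pools and 0.0926 over 8. The log2 fold change of *Fgfr1* kept its sign and its call in all 20 alternatives (−1.13 to −0.93), and that of *Fgfr2* its sign in 20 and its call in 11. *Fgfr3* turned to 0.00 with all 8 pools (0.000788), without vehicle replicate 4 (0.00423) and with an 8-pool block (0.00273). Leaving out 1 pool at a time, *Fgfr3* ran from −0.0806 to 0.00423, *Dusp6* from −0.337 to 0.0471, *Etv4* from −0.453 to 0.149, *Etv5* from −0.432 to 0.0542 and *Etv1* from −0.240 to 0.0883, and *Etv1* was at 0.0107 with technical replicate 1 only. The upper ends came without vehicle replicate 4, and *Etv1* was also positive without vehicle replicate 3. Of all calls 51.5% were higher with TCDD, against 43.8% with upper-quartile scaling and 42.1% with unscaled library sizes. The cause of these shifts was not tested. The counts of *Fgf10* are too few at this depth for any comparison.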
